A study of Mus musculus with 19 samples.

Results

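The genes that activate fatty acids, carry them into mitochondria and shorten them by beta-oxidation were followed across quadriceps muscle of AR113Q mice and wild-type controls on both diets. The 36 genes were taken by the name printed for each probe on the array, out of 24741 genes with a tested probe, and the rule uses no measured value. Together they had 49 of the 32026 probes tested, with 1 probe for 25 genes and more than 1 for the other 11 genes. Every one of these probes was well above background on all 19 arrays and none was saturated, so all 36 genes were measured in every sample. The AR113Q mice are a knock-in model of spinal and bulbar muscular atrophy (SBMA), a neuromuscular disease caused by an expanded polyglutamine tract in the androgen receptor. The controls (CTR) were wild type, so they carried no knock-in allele of either length. All mice were C57Bl6J males killed at 180 days of age, and they received the purified normal chow diet (NCD) or the high-fat diet (HFD) from 40 days of age. There were 5 arrays of CTR-NCD, 5 of AR113Q-NCD, 4 of CTR-HFD and 5 of AR113Q-HFD quadriceps, with 1 sample on each array, and n counts arrays. The labels do not say whether a sample is a single mouse, so p-values measure the spread between these samples.

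A fatty acid is first joined to coenzyme A by an acyl-CoA synthetase (the Acsl genes). In the carnitine shuttle, Cpt1 enzymes on the outer mitochondrial membrane exchange coenzyme A for carnitine, the carrier Slc25a20 moves the product across the inner membrane, and Cpt2 restores the acyl-CoA. Inside, acyl-CoA dehydrogenases, hydratases, hydroxyacyl-CoA dehydrogenases and thiolases remove acetyl-CoA units in turn, and the electrons reach the respiratory chain through the electron transfer flavoprotein. Peroxisomes run a parallel pathway for very long and branched chains, which starts with an acyl-CoA oxidase. In skeletal muscle the mitochondrial pathway is most abundant in slow oxidative fibers.

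The probes behind the results are short pieces of each transcript. The probes of Cpt1a and Acox3 are shown because Cpt1a was measured by a pair of probes that moved together, and Acox3 by probes that did not. Of each probe of 60 bases the first 30 are printed as the array's design gives them, with no capitals because no motif was marked. Positions are on mm9, the build of the files, and all 5 probes are placed on the plus strand.
Cpt1a, brighter probe (chr19:3385374-3385433): tcttaggactacttgctaacctctgttact
Cpt1a, second probe (chr19:3384060-3384119): acagtcccccgaagtcttttgaatcggctc
Acox3, brightest probe (chr5:35956215-35956274): aaccagacttagatgggtgatatcacatga
Acox3, second probe (chr5:35952411-35952470): agatgtcatcgccccctccgactttgttct
Acox3, remaining probe (chr5:35954432-35954491): gctcccatcaggcttgcttttatggcactt

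On the NCD, 9 of the 36 genes were higher in AR113Q than in CTR quadriceps and 1 was lower. A gene was called on its brightest probe at an adjusted p under 0.05 in limma, and over all genes tested 8.31% were called higher and 9.04% lower. The 9 higher genes were Hsd17b4, Cpt1a, Acadsb, Acacb, Decr2, Acox3, Acsl4, Aldh9a1 and Acadl, and the lower gene was Acsl3. Counted by probe, 11 of 49 were higher and 2 lower, against 8.29% and 9.28% of all probes. With a fold of at least 1.5 or at most 0.6 required as well, 2 members stayed higher (Aldh9a1 and Acadl, against 2.26% of all genes) and 1 stayed lower (Acsl3, against 2.03%). In 31 of 36 genes (86.1%) the AR113Q-NCD mean was above the CTR-NCD mean, against 42.1% of all genes. The median log2 fold change of the 36 genes was 0.28, against -0.06 over all genes. The calls depended on scaling. After median centring those of Hsd17b4, Cpt1a and Acsl3 held on the NCD, and with normexp background correction those of Hsd17b4 and Acsl4. Within each of the 5 slides, which held 1 array of each group (1 slide lacked CTR-HFD), the 10 called genes differed in the direction of the call. Where the groups did not overlap, in all of them but Acsl4 and Aldh9a1, this had to be so and is no separate check. In 10 members every AR113Q-NCD array lay above every CTR-NCD array, against 7.41% of all genes, and in 1 member every array lay below, against 8.07%. Since whole muscle was measured, fewer cells of a type and less RNA per cell cannot be told apart.

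**Figure D1:**
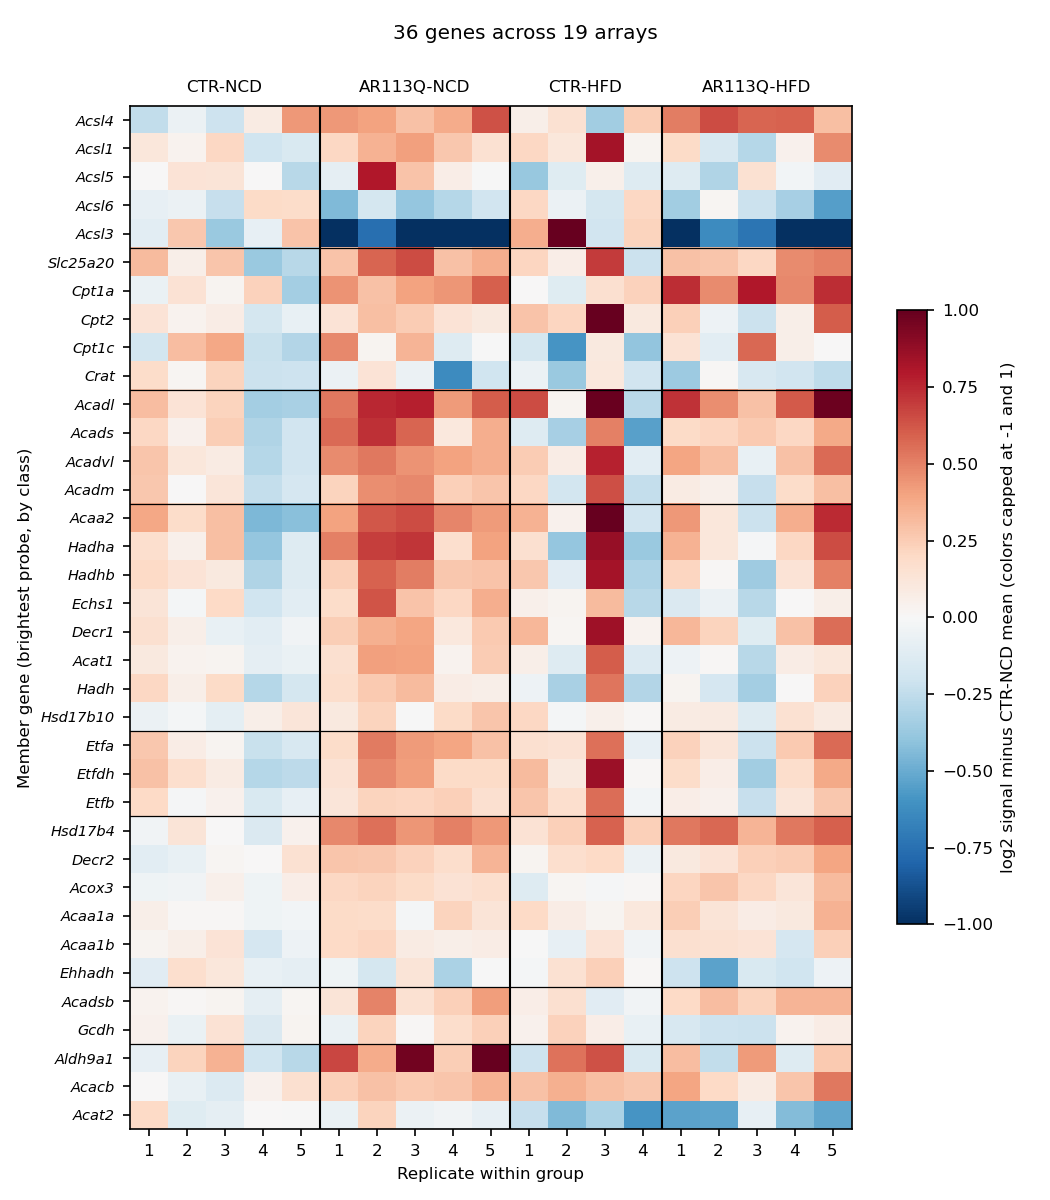
Heat map of 36 genes (rows, ordered by class) on 19 arrays (columns, by group and replicate). Color gives the log2 signal of the brightest probe minus the CTR-NCD mean, capped at -1 and 1. Acsl3 is blue on all 10 AR113Q arrays, most mitochondrial genes are red on the 5 AR113Q-NCD arrays, and CTR-HFD replicate 3 is red in the same rows.

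Several arrays differed in the signal of slow fiber genes, and these values stand beside the results. The mean log2 level of 7 slow fiber genes (Tnni1, Tnnc1, Tnnt1, Myh7, Myl2, Myl3 and Atp2a2), relative to the CTR-NCD mean, was 1.91 to 3.04 on the 5 AR113Q-NCD arrays. On the CTR-NCD arrays it was -0.05, 2.08, 0.90, -2.28 and -0.65 in replicates 1 to 5. On the CTR-HFD arrays it was -1.34, -2.97, 2.32 and -4.02, and on the AR113Q-HFD arrays 1.14, -2.37, -2.64, 0.90 and 1.66. CTR-NCD replicate 2 and CTR-HFD replicate 3 thus lay within the AR113Q-NCD range, and AR113Q-HFD replicates 2 and 3 within the low control range. All 7 genes were higher in AR113Q on each diet and none was called, with median log2 fold changes of 2.32 on the NCD and 1.13 on the HFD. Skeletal muscle genes (Ckm, Acta1 and the fast fiber genes Myh4, Tnnt3 and Mylpf) were called lower in 5 of 5 on both diets. This list thus mixes general and fast fiber genes. The medians were -0.39 and -0.50, though after quantile normalization they were -0.02 and -0.03, with 2 of 5 called on each diet. After that normalization 2 of 5 genes were higher on the NCD and 1 of 5 on the HFD. Of 3 brown adipocyte genes tested, Ucp1 and Cidea had higher means in AR113Q on each diet, not called, and Cox8b was lower, called on the HFD (-0.32, adjusted p = 0.00824). Their mean ran from -1.0 to 1.73 in CTR-NCD, from 0.27 to 4.73 in AR113Q-NCD, from -1.07 to 0.03 in CTR-HFD and from -0.81 to 1.11 in AR113Q-HFD quadriceps. The part of these differences in the fatty acid genes was not tested.

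Activation genes moved in opposite directions. Acsl3, a long-chain acyl-CoA synthetase found mainly at the endoplasmic reticulum and lipid droplets, had a log2 signal relative to the 75th percentile of its array of -3.78, -3.40, -4.04, -3.76 and -3.38 on the CTR-NCD arrays. On the AR113Q-NCD arrays it was -5.05, -4.43, -4.90, -4.89 and -5.01. The groups did not overlap, and the log2 fold change was -1.18 ± 0.24 (SE, 0.441-fold, adjusted p = 0.00205, exact permutation p = 0.00794, the smallest that 5 against 5 arrays allow, 2-sided). Its signal on the HFD was -3.31, -2.50, -3.86 and -3.45 in CTR and -5.17, -4.30, -4.40, -4.84 and -5.22 in AR113Q quadriceps. These groups did not overlap either, with a log2 fold change of -1.51 ± 0.25 (0.352-fold, adjusted p = 0.000438). With normexp the values were -1.25 on the NCD (adjusted p = 0.145) and -0.64 on the HFD (adjusted p = 0.993), neither called. The Acsl3 calls on each diet, and the size of its fold change on the HFD, thus depended on background correction. In AR113Q quadriceps its mean signal was the lowest of the members' brightest probes (-4.85 on the NCD and -4.79 on the HFD). Acsl3 had no second probe to compare. Within slides the difference was -1.62 to -0.85 on the NCD (5 slides) and -1.86 to -0.54 on the HFD (4 slides). The difference between diets in the Acsl3 genotype effect was -0.33 with a 95% interval from -1.05 to 0.40.

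Acsl4, a synthetase that prefers arachidonic acid, was higher in AR113Q quadriceps on both diets. Its log2 signal was 1.47, 1.65, 1.5, 1.79 and 2.14 on CTR-NCD arrays and 2.14, 2.12, 2.01, 2.08 and 2.35 on AR113Q-NCD arrays. The ranges overlapped through CTR-NCD replicate 5, and the log2 fold change was 0.43 ± 0.13 (adjusted p = 0.0295). On the HFD the CTR arrays gave 1.77, 1.87, 1.37 and 1.96 and the AR113Q arrays 2.22, 2.36, 2.30, 2.30 and 2.02. There all AR113Q values lay above the controls, by 0.50 ± 0.14 (adjusted p = 0.0169), but without CTR-HFD replicate 3 the difference was 0.38 (adjusted p = 0.0594). The NCD call ended when any of 6 arrays was left out (CTR-NCD replicates 1, 2 and 3 and AR113Q-NCD replicates 1, 2 and 5), with adjusted p from 0.0506 to 0.0816. The brain-enriched synthetase Acsl6 had log2 fold changes of -0.30 on the NCD and -0.33 on the HFD (adjusted p = 0.0855 and 0.0715). Averaged over both diets it was called lower, and its second probe was called lower on the NCD at -0.40 (adjusted p = 0.0465). The groups of that probe barely missed an overlap, the highest AR113Q-NCD array being at -2.453 and the lowest CTR-NCD array at -2.452. Acsl1, the main synthetase of muscle, and Acsl5 were not called, with log2 fold changes of 0.28 and 0.21 on the NCD and of -0.24 and 0.06 on the HFD.

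In the carnitine shuttle, Cpt1a was higher in AR113Q quadriceps on both diets by both of its probes. Cpt1a is the liver isoform of carnitine palmitoyltransferase 1, which muscle expresses beside the muscle isoform Cpt1b. The log2 signal of its brighter probe was 0.39, 0.61, 0.49, 0.69 and 0.12 on CTR-NCD arrays and 0.90, 0.75, 0.86, 0.90 and 1.05 on AR113Q-NCD arrays. On the HFD it was 0.46, 0.34, 0.62 and 0.69 in CTR and 1.19, 0.93, 1.26, 0.94 and 1.2 in AR113Q quadriceps. On neither diet did the groups overlap. The log2 fold change was 0.43 ± 0.11 on the NCD (1.35-fold, adjusted p = 0.00866) and 0.58 ± 0.11 on the HFD (1.49-fold, adjusted p = 0.00164). The second probe gave 0.54 and 0.75 (adjusted p = 0.00138 and 0.000138), again without overlap. Within slides the brighter probe differed by 0.14 to 0.93 on the NCD (5 slides) and by 0.51 to 0.73 on the HFD (4 slides).

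The other genes of the shuttle were not called on either diet. For Slc25a20, the carnitine-acylcarnitine carrier, the log2 fold change was 0.44 on the NCD (adjusted p = 0.0738) and 0.16 on the HFD (adjusted p = 0.601). Cpt2 had 0.19 and -0.27, and Crat, which forms acetylcarnitine, had -0.16 and -0.06. Cpt1c, a neuronal isoform, had 0.14 and 0.40 by its brighter probe and -0.16 and 0.10 by the other, so the probes differed in sign on the NCD. For Cpt1b, which is no member, it was 0.27 on the NCD (adjusted p = 0.0933) and 0.11 on the HFD (adjusted p = 0.573).

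**Figure D2:**
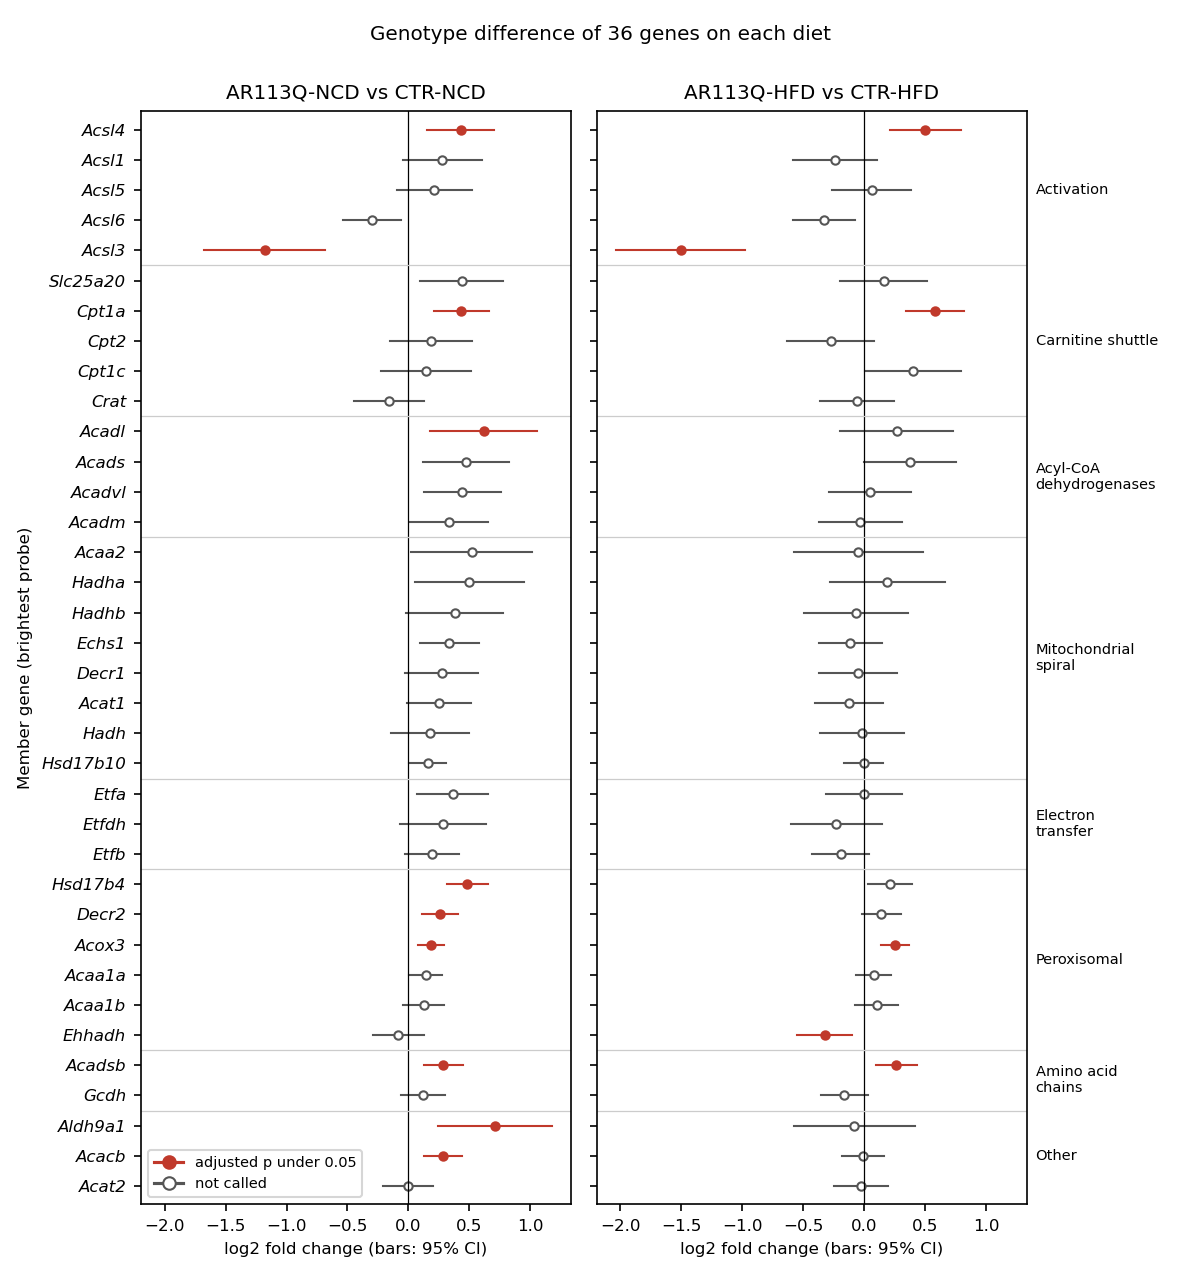
Log2 fold changes (x axis) of the brightest probe of each of 36 genes (y axis, by class) between AR113Q and CTR quadriceps on the NCD (left) and the HFD (right), with 95% intervals from limma and filled red points for called genes. On the NCD 31 of 36 points lie right of 0, and on the HFD 15 of 36.

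The 19 enzymes grouped as mitochondrial all had a higher mean in AR113Q than in CTR quadriceps on the NCD, also under each of the 4 other scalings. The 19 comprise Slc25a20, Cpt2, the acyl-CoA dehydrogenases, the enzymes of the oxidation spiral, the electron transfer genes, Acadsb and Gcdh. Cpt1a and Crat, which also act at mitochondria, were left out of this group. Cpt1a was called higher, and Crat had a lower mean (1.16 in AR113Q-NCD and 1.32 in CTR-NCD). Among the 19 only Acadl and Acadsb were called, while 7 were called after quantile normalization and none after median centring or with normexp. Shares of all genes called under those scalings are not given here. The median log2 fold change of the 19 was 0.33, from 0.12 to 0.62. As a mean over the 19 genes, relative to the CTR-NCD mean, the CTR-NCD arrays lay at 0.19, 0.06, 0.12, -0.23 and -0.14 and the AR113Q-NCD arrays at 0.25, 0.48, 0.41, 0.23 and 0.30. The AR113Q-NCD arrays lay above all CTR-NCD arrays, the nearest pair being 0.23 and 0.19. CTR-NCD replicates 4 and 5 were lowest in these genes and also in the slow fiber genes. Replicate 2, with the highest slow fiber signal of the group (2.08), had a mitochondrial mean of 0.06. Replicate 1, with a slow fiber signal of -0.05, had the highest mitochondrial mean (0.19). The part of slow fiber signal in these means was not tested.

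Among the long-chain enzymes Acadl was called. Acadl, the long-chain acyl-CoA dehydrogenase, had a log2 signal of 3.71, 3.53, 3.62, 3.06 and 3.07 on CTR-NCD arrays and 3.93, 4.15, 4.18, 3.83 and 4.0 on AR113Q-NCD arrays. The groups did not overlap, with a log2 fold change of 0.62 ± 0.21 (1.54-fold, adjusted p = 0.049). This call was close to the threshold and ended in 14 of 19 cases when 1 array was left out (adjusted p 0.05002 to 0.124), the exceptions being CTR-NCD replicate 1, CTR-HFD replicates 2, 3 and 4 and AR113Q-HFD replicate 5. Acadvl, the very-long-chain dehydrogenase of the inner membrane, had 6.78, 6.62, 6.59, 6.22 and 6.32 in CTR-NCD and 6.98, 7.03, 6.96, 6.91 and 6.87 in AR113Q-NCD quadriceps. It too showed no overlap, but its log2 fold change of 0.44 ± 0.15 missed the threshold (adjusted p = 0.0501). Hadha, the alpha subunit of the trifunctional protein that handles long chains, had 2.89, 2.77, 3.02, 2.33 and 2.59 in CTR-NCD and 3.23, 3.41, 3.44, 2.89 and 3.12 in AR113Q-NCD quadriceps. These ranges overlapped through CTR-NCD replicate 3 and AR113Q-NCD replicate 4, with a difference of 0.50 ± 0.21 (adjusted p = 0.125). For the beta subunit Hadhb it was 0.38 (adjusted p = 0.203), without overlap. The median over these 4 long-chain genes was 0.47, with 4 of 4 higher and 1 called.

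The medium- and short-chain enzymes had a median log2 fold change of 0.33 on the NCD, with 6 of 6 higher and none called by limma. Of them Acads, the short-chain dehydrogenase, had 0.47 (adjusted p = 0.0637), Acadm, the medium-chain dehydrogenase, 0.34 (adjusted p = 0.153), and Echs1, the short-chain enoyl-CoA hydratase, 0.33 (adjusted p = 0.0521). Acaa2, a mitochondrial thiolase, had 6.34, 6.13, 6.26, 5.50 and 5.53 in CTR-NCD and 6.35, 6.57, 6.61, 6.44 and 6.38 in AR113Q-NCD quadriceps. These ranges did not overlap, by a margin of 0.01 at 2 decimals, and the difference was 0.52 ± 0.24 (adjusted p = 0.158). Acat1, the thiolase of ketone bodies and isoleucine, had 0.25, and Hadh, which acts on medium and short chains, 0.18. Decr1, the mitochondrial dienoyl-CoA reductase, had 0.27, and Hsd17b10, which also acts in isoleucine breakdown, 0.16. Since 4 and 6 genes were compared with no test, the long-chain and shorter-chain medians are given as values only. The electron transfer genes Etfa, Etfb and Etfdh had 0.36, 0.19 and 0.28, none called.

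Of the 6 peroxisomal genes 3 were called higher on the NCD (Hsd17b4, Decr2 and Acox3), and 5 of 6 had a higher mean (4 of 6 with normexp and in the authors' values), with a median log2 fold change of 0.16. Over all genes 8.31% were called higher. Hsd17b4, the peroxisomal bifunctional enzyme for branched and very long chains, had a log2 signal of 3.42, 3.59, 3.46, 3.31 and 3.50 in CTR-NCD and 3.94, 4.0, 3.90, 3.96 and 3.89 in AR113Q-NCD quadriceps. The groups lay apart by 0.48 ± 0.08 (1.40-fold, adjusted p = 0.000432), the smallest adjusted p of the 36 genes in this comparison. It was 3.60, 3.69, 4.05 and 3.69 in CTR-HFD and 3.98, 4.03, 3.80, 3.99 and 4.06 in AR113Q-HFD quadriceps. There the ranges overlapped, and the difference of 0.21 ± 0.08 was not called (adjusted p = 0.1). Decr2, the peroxisomal dienoyl-CoA reductase, had -1.56, -1.53, -1.44, -1.45 and -1.30 in CTR-NCD and -1.18, -1.18, -1.22, -1.28 and -1.12 in AR113Q-NCD quadriceps. It did not overlap and was higher by 0.26 ± 0.07 (adjusted p = 0.0172), but with normexp the value was -0.13. On the HFD it had 0.14 (adjusted p = 0.235). The thiolases Acaa1a and Acaa1b had 0.14 and 0.12 on the NCD and 0.08 and 0.10 on the HFD, none called.

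Ehhadh, the other peroxisomal bifunctional enzyme, was lower on the HFD. Its log2 signal was -0.62, -0.45, -0.36 and -0.59 in CTR-HFD and -0.81, -1.13, -0.75, -0.80 and -0.65 in AR113Q-HFD quadriceps. The groups did not overlap, and Ehhadh was lower by -0.33 ± 0.11 (0.798-fold, adjusted p = 0.0422). The call ended when any of 8 arrays was left out (CTR-HFD replicates 2, 3 and 4, AR113Q-HFD replicates 1 to 4 and AR113Q-NCD replicate 1), with adjusted p from 0.0518 to 0.112. On the NCD it was -0.71, -0.43, -0.49, -0.68 and -0.69 in CTR and -0.65, -0.78, -0.48, -0.92 and -0.61 in AR113Q quadriceps, which overlapped (-0.08, adjusted p = 0.66).

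The 3 probes of Acox3, an acyl-CoA oxidase for branched chains, gave different results. The brightest probe had a log2 signal of 1.41, 1.42, 1.5, 1.40 and 1.52 in CTR-NCD and 1.66, 1.67, 1.64, 1.59 and 1.62 in AR113Q-NCD quadriceps, and 1.32, 1.47, 1.44 and 1.46 in CTR-HFD against 1.66, 1.73, 1.66, 1.57 and 1.77 in AR113Q-HFD. It was called higher on both diets without overlap, by 0.19 ± 0.05 (adjusted p = 0.0184) and 0.26 ± 0.05 (adjusted p = 0.00339). The second probe, which lies upstream of it, gave -0.37 on the NCD and -0.59 on the HFD (adjusted p = 0.243 and 0.0611). The remaining probe, designed to another transcript record, gave 0.32 (adjusted p = 0.0144) and 0.08 (adjusted p = 0.603). The direction of Acox3 thus differed by probe. Among the other genes with more than 1 probe, the sign differed between probes for Cpt1c on the NCD and for Acsl1, Etfa, Etfb, Decr1 and Acacb on the HFD, where none of these probes was called.

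**Figure D3:**
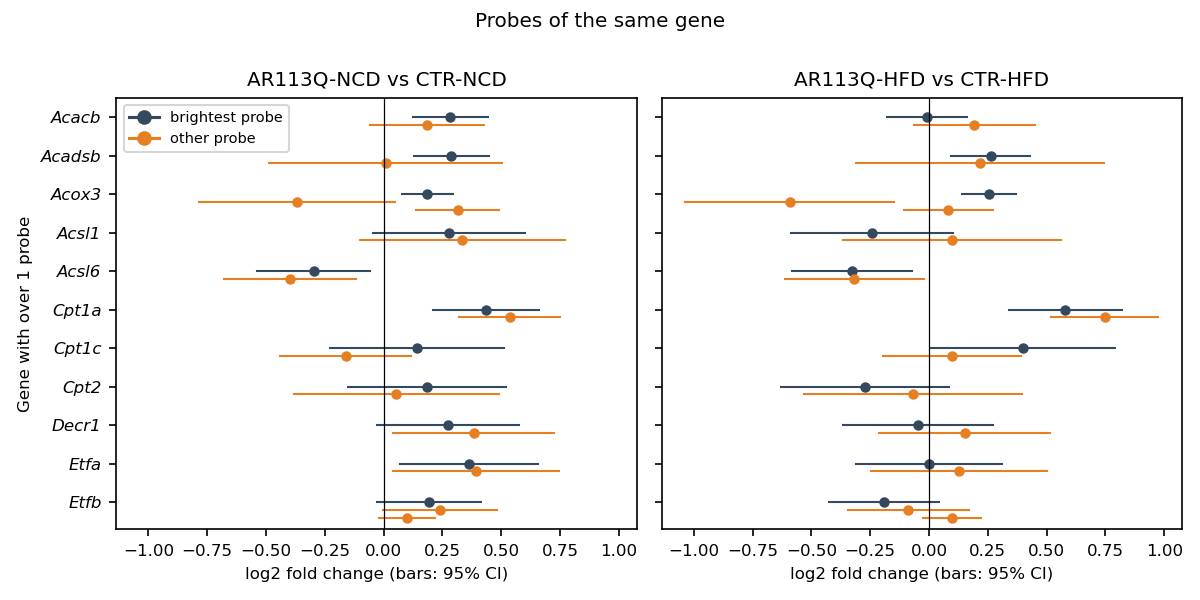
Log2 fold changes (x axis) with 95% intervals of every probe of the 11 genes with more than 1 probe (y axis), between AR113Q and CTR quadriceps on the NCD (left) and the HFD (right). Both Cpt1a probes lie right of 0 on both diets, and the second Acox3 probe lies left of 0 at -0.37 and -0.59.

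Of 5 genes at the edge of the pathway, Acadsb, Acacb and Aldh9a1 were called higher on the NCD, and Gcdh and Acat2 were not called. Acadsb, a short/branched-chain dehydrogenase of isoleucine breakdown, had 2.43, 2.41, 2.42, 2.30 and 2.41 in CTR-NCD and 2.52, 2.89, 2.55, 2.63 and 2.81 in AR113Q-NCD quadriceps. On the HFD it had 2.46, 2.56, 2.28 and 2.35 in CTR and 2.59, 2.70, 2.61, 2.73 and 2.73 in AR113Q quadriceps. The groups lay apart on both diets, by 0.29 ± 0.08 (adjusted p = 0.0132) and 0.26 ± 0.08 (adjusted p = 0.0301). With median centring or normexp neither call held (adjusted p from 0.125 to 0.99995). On the HFD the call also ended with array weights, with only those groups fitted, and when any of 5 arrays was left out (CTR-HFD replicates 3 and 4 and AR113Q-HFD replicates 2, 4 and 5), with adjusted p from 0.0558 to 0.0876. A second probe gave 0.01 on the NCD and 0.22 on the HFD, neither called. Gcdh, of lysine and tryptophan breakdown, had 0.12 and -0.16, not called.

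Acacb, which makes the malonyl-CoA that restrains carnitine palmitoyltransferase 1, is an opposing member of the set. On the NCD it had 5.01, 4.93, 4.87, 5.05 and 5.16 in CTR and 5.25, 5.29, 5.26, 5.29 and 5.35 in AR113Q quadriceps. On the HFD it had 5.30, 5.36, 5.31 and 5.27 in CTR and 5.40, 5.20, 5.08, 5.28 and 5.53 in AR113Q quadriceps. CTR-NCD stood below the other groups, apart from AR113Q-HFD replicate 3, which lay within its range. The difference was 0.28 ± 0.08 on the NCD (adjusted p = 0.0145) and -0.01 ± 0.08 on the HFD (adjusted p = 0.956), and a second probe gave 0.19 on each diet, not called. Aldh9a1, an aldehyde dehydrogenase of carnitine synthesis, had 0.13, 0.44, 0.56, 0.01 and -0.07 in CTR-NCD and 0.88, 0.59, 1.18, 0.46 and 1.51 in AR113Q-NCD quadriceps. The ranges overlapped and the difference of 0.71 ± 0.22 was called (1.63-fold, adjusted p = 0.0341). That call ended when any of 6 arrays was left out (CTR-NCD replicates 1, 4 and 5 and AR113Q-NCD replicates 1, 3 and 5), with adjusted p from 0.0555 to 0.0989. On the HFD it had 0.01, 0.76, 0.85 and 0.07 in CTR and 0.53, -0.03, 0.64, 0.09 and 0.48 in AR113Q quadriceps, with a difference of -0.08 ± 0.23 (adjusted p = 0.866). Acat2, the cytosolic acetoacetyl-CoA thiolase, had 0.00 and -0.03.

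**Figure D4:**
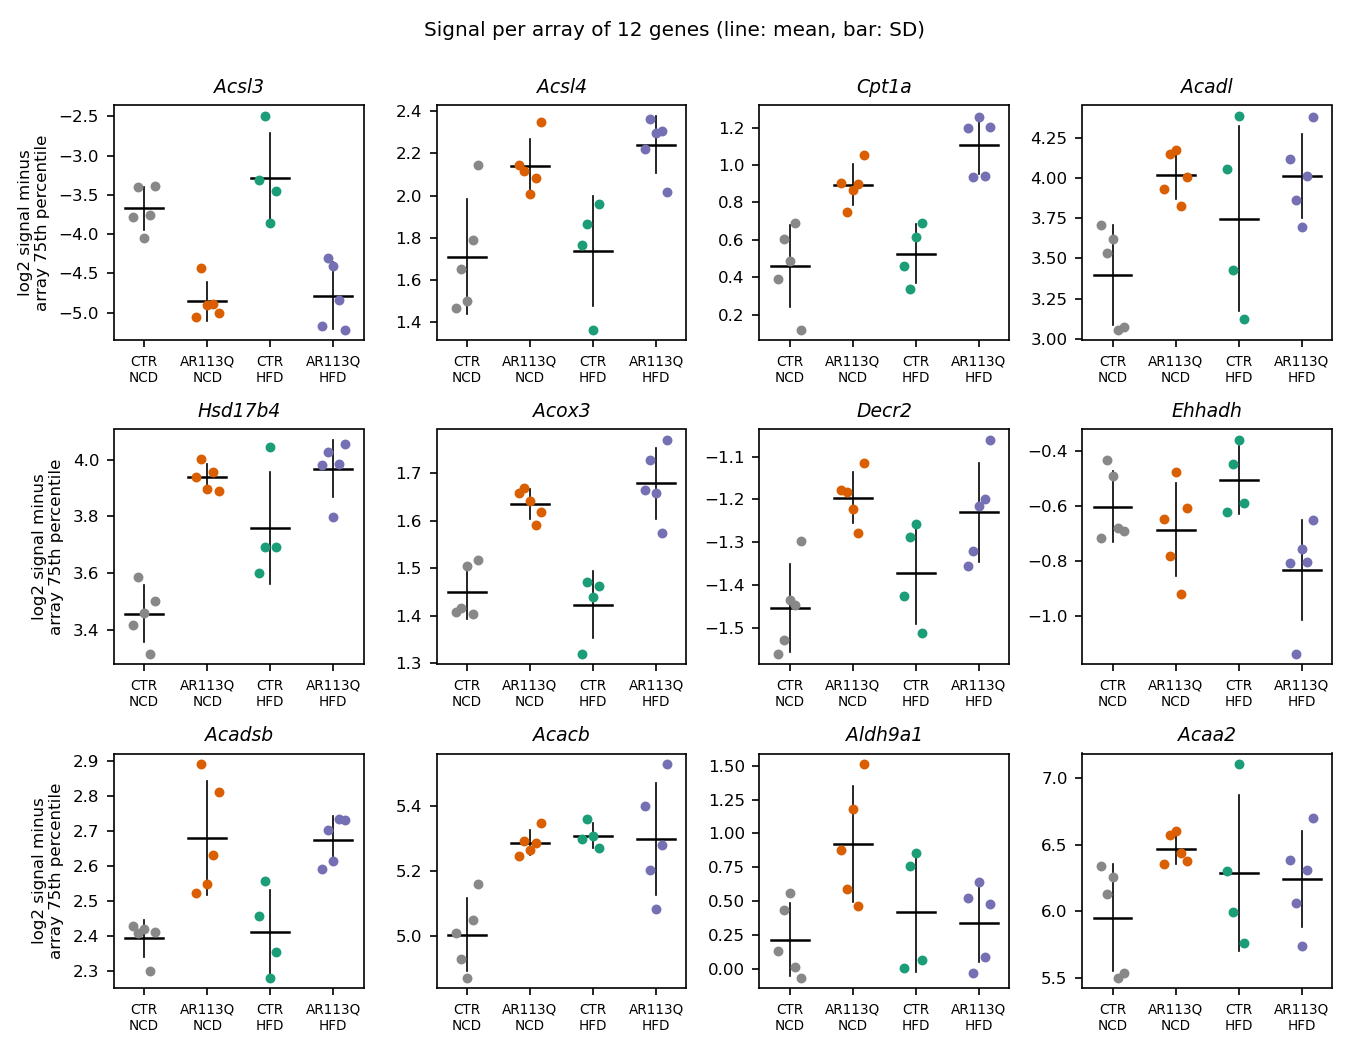
Log2 signal relative to the array's 75th percentile (y axis, scales differ) of 12 genes by group (x axis), with a point per array, a line at the mean and a bar of 1 SD. Acsl3 falls and Cpt1a rises between CTR and AR113Q on both diets without overlap, while the 4 CTR-HFD arrays range from 3.13 to 4.38 for Acadl.

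On the HFD, 4 of the 36 genes were called higher in AR113Q than in CTR quadriceps (Cpt1a, Acox3, Acsl4 and Acadsb) and 2 lower (Acsl3 and Ehhadh). Over all genes 7.74% were called higher and 10.2% lower, and the members called were 4 and 2 of 36. Counted by probe, 5 of 49 were higher and 2 lower, against 8% and 9.93% of all probes. The groups did not overlap in any of the 6 called genes. Their differences within the 4 slides that held both groups thus had to follow the call, which is no separate check. With the fold thresholds added, 1 member was lower (Acsl3, against 1.92% of all genes) and 0 were higher (against 2.78%). In 4 members all AR113Q-HFD arrays lay above and in 2 members all lay below the CTR-HFD arrays, against 7.18% and 8.46% of all genes. Genes called in the same direction on both diets numbered 5, namely Cpt1a, Acox3, Acsl4 and Acadsb among the higher and Acsl3 among the lower. Over all genes 5.14% were called higher on both diets and 6.81% lower. After median centring the HFD calls of Cpt1a and Acsl3 held, and with normexp that of Cpt1a. Of the rest, 5 were called on the NCD alone and 1 on the HFD alone, and for none of them was the difference between diets called in the interaction.

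The set as a whole had no clear direction on the HFD. The median log2 fold change was -0.01, with 15 of 36 genes higher, against -0.08 and 39.5% of all genes. This direction depended on scaling and on 1 array. The median was 0.13 with 26 of 36 higher after quantile normalization, 0.12 with 26 higher in the authors' table, 0.05 with 24 higher after median centring, and 0.13 with 25 higher without CTR-HFD replicate 3. Of the 19 mitochondrial enzymes 6 were higher and the median was -0.03, against 13 higher and 0.15 without that array. On the CTR-HFD arrays their mean relative to CTR-NCD was 0.20, -0.01, 0.62 and -0.16, and on the AR113Q-HFD arrays 0.19, 0.10, -0.12, 0.21 and 0.42. CTR-HFD replicate 3, which had the highest mean of all 19 arrays, was also the CTR-HFD array with high slow fiber signal. AR113Q-HFD replicate 3, the lowest of its group in the mitochondrial mean, was lowest in the slow fiber genes. Of the 6 peroxisomal genes 5 were higher, with a median of 0.12 and of 0.16 without CTR-HFD replicate 3.

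**Figure D5:**
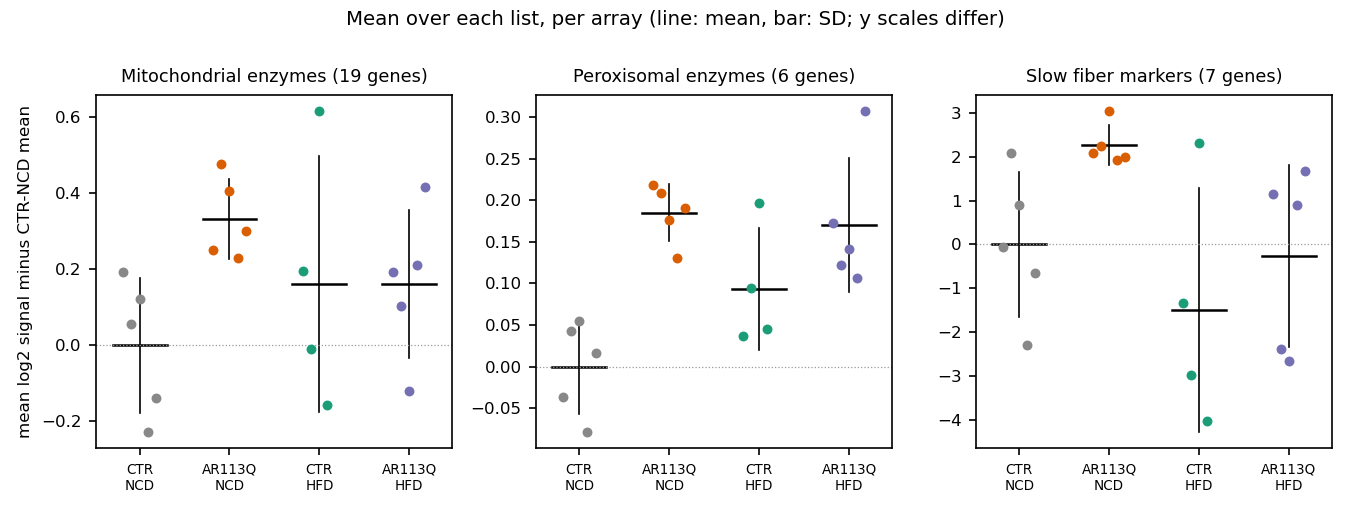
Mean log2 signal minus the CTR-NCD mean (y axis, scales differ) of 19 mitochondrial enzymes, 6 peroxisomal enzymes and 7 slow fiber markers by group (x axis), with a point per array, a line at the mean and a bar of 1 SD. CTR-HFD replicate 3 stands at 0.62 in the mitochondrial panel and at 2.32 in the slow fiber panel, above the other 3 CTR-HFD arrays in both.

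Between diets no member was called in either genotype. In AR113Q quadriceps 28 of 36 genes were lower on the HFD than on the NCD, with a median log2 fold change of -0.12 against 0.00 over all genes, and 0.0202% of all genes were called lower and 0% higher by limma. At an unadjusted p under 0.05, 5 members were lower and 0 higher, and 6.67% of all genes passed that level in either direction. The 19 enzymes grouped as mitochondrial were all lower, with a median of -0.19 and values between -0.42 and 0.00. Of Cpt1a and Crat, which are not among them, Cpt1a was higher and Crat lower. Echs1 was 4.34, 4.78, 4.44, 4.37 and 4.52 in AR113Q-NCD and 4.01, 4.10, 3.88, 4.16 and 4.22 in AR113Q-HFD quadriceps. It was the only member without overlap in this comparison (-0.42 ± 0.11, adjusted p = 0.413), and 1.08% of all genes lay below without overlap. The slow fiber genes were lower in 7 of 7 in the same comparison, with a median of -2.59 and none called, and their part in the mitochondrial values was not tested.

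In CTR quadriceps 29 of 36 genes were higher on the HFD, with a median of 0.10 against 0.02 over all genes, and 0% of all genes were called in each direction by limma. At an unadjusted p under 0.05, 4 members were higher and 1 lower, against 8.39% of all genes. Hsd17b4 and Acacb were higher on every CTR-HFD array than on any CTR-NCD array, by 0.30 each (adjusted p = 0.351 and 0.338), where 1.47% of all genes did so. Acat2 was lower without overlap, against 1.17% of all genes. Its log2 signal was -3.36, -3.68, -3.65, -3.56 and -3.57 in CTR-NCD and -3.79, -4.01, -3.88 and -4.15 in CTR-HFD, a difference of -0.39 ± 0.10 (adjusted p = 0.338). In AR113Q quadriceps Acat2 was -3.63, -3.34, -3.62, -3.60 and -3.65 on the NCD and -4.10, -4.09, -3.65, -4.00 and -4.08 on the HFD, a difference of -0.42 ± 0.10 (adjusted p = 0.317). Averaged over both genotypes the Acat2 difference was -0.40 with an adjusted p of 0.083, and it was called lower with the replicate block (adjusted p = 0.045) and with the slide as a random block (adjusted p = 0.0284). Acat2 was also called without a block on probes well above background on all arrays (adjusted p = 0.0492). Leaving out AR113Q-HFD replicate 3 gave a call as well (adjusted p = 0.0198). With the slide as a fixed block 0 members were called. In the main fit 0 members were called, against 0.00404% of all genes higher and 0.0202% lower.

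The genotype by diet interaction asks whether the genotype difference changed with the diet. No member was called by limma, 0% of all genes were called in each direction, and the smallest adjusted p of a member was 0.992. The interaction was negative in 31 of 36 genes and in all 19 enzymes grouped as mitochondrial, with medians of -0.28 and -0.36. A negative value is a lower AR113Q minus CTR difference on the HFD. Crat and Cpt1a, which are not among the 19, were positive. The share of all genes with a negative value is not given here, so these counts have no baseline. At an unadjusted p under 0.05, 8 members were negative and 0 positive, against 4.6% of all genes. Without CTR-HFD replicate 3 the medians were -0.15 and -0.21. The most negative value was that of Aldh9a1, at -0.79 with a 95% interval from -1.47 to -0.11 (adjusted p = 0.9997). For Cpt1a it was 0.15, from -0.18 to 0.47, and for Hsd17b4 -0.27, from -0.52 to -0.03 (adjusted p = 0.9997).

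Averaged over both diets, 11 of 36 genes were called between AR113Q and CTR quadriceps, 8 higher and 3 lower, against 13% and 16% of all genes. The higher genes were Acadl, Acads, Acadsb, Acox3, Acsl4, Cpt1a, Decr2 and Hsd17b4, and the lower genes Acsl3, Acsl6 and Ehhadh. With the fold thresholds 0 were higher (2.79% of all genes) and 1 lower (Acsl3, 2.29% of all genes). The averaged calls of Acadl and Ehhadh each ended when any of 10 of the 19 arrays was left out, with adjusted p of at most 0.0815 and 0.0863.

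Other genes of fatty acid oxidation, 34 with a tested probe, were compared in the same way. Of these 34, 8 were called higher and 0 lower in AR113Q-NCD against CTR-NCD quadriceps, and 29 had a higher mean, where 8.31% of all genes were called higher, 9.04% lower and 42.1% had a higher mean. Those named here include peroxisomal enzymes that the set of 36 lacks. Acox2, an oxidase of branched chains and bile acid precursors, was higher by 2.31 on the NCD (4.97-fold, adjusted p = 0.00268) and by 2.56 on the HFD (adjusted p = 0.0019), where 3 of 4 CTR-HFD arrays were well above background. Hacl1, of phytanic acid alpha-oxidation, was higher by 0.62 and 0.75 (adjusted p = 0.000349 and 0.000104). Bbox1, the last enzyme of carnitine synthesis, was higher by 0.84 and 1.10 (adjusted p = 0.0305 and 0.00873), and it too was well above background on 3 of 4 CTR-HFD arrays. Ivd, of leucine breakdown, Eci2, an enoyl-CoA isomerase, and Amacr, a racemase of branched chains, were called higher on the NCD at 0.50, 0.35 and 0.28. On the HFD 3 of the 34 were called higher and 4 lower, shares near those of all genes (7.74% and 10.2%), the lower being Oxct1, Mlycd, Pecr and Acot13 at -0.49, -0.37, -0.34 and -0.25.

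Promoter sequence was compared because the members of the pathway are known targets of nuclear receptors that bind repeats of AGGTCA. RefSeq windows of 300 bases, 250 before and 50 after the annotated start on GRCm38.p6, were found for 31 of the 36 genes, 34 windows in all, and not for Crat, Acaa2, Hsd17b4, Decr1 and Acat1. The direct repeat of AGGTCA with any 1 base between the copies, searched on both strands, was in 0 of the 34 windows and in 0.0396% of all 32851 windows. The extended half-site TNAAGGTCA was in 1 window, of Acsl6, and in 1.28% of all windows. The bare half-site AGGTCA, which lies inside the other motifs and was added after the first search, was in 7 windows, 1 each of Acadm, Acacb, Cpt1c, Echs1, Acsl6, Acadvl and Cpt1a (20.6% of member windows and 16.3% of all windows). The bases before the start are shown for Cpt1a and Acsl3, the genes called in opposite directions on both diets, and for the Acsl6 window with the extended half-site. They read 5′ to 3′ along each gene's plus strand, and capitals mark a motif on either strand.
Cpt1a (chr19:3323051-3323300): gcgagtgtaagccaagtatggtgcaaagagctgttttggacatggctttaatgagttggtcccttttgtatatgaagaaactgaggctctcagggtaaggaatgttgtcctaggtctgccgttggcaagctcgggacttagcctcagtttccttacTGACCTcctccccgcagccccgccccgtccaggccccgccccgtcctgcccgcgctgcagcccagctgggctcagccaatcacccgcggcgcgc
Acsl3 (chr1:78657575-78657824): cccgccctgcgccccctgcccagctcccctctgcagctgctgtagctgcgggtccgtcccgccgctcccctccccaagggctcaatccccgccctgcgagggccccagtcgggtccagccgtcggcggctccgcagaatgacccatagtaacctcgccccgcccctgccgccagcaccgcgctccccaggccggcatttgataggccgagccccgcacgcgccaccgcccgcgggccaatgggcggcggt
Acsl6 (chr11:54303574-54303823): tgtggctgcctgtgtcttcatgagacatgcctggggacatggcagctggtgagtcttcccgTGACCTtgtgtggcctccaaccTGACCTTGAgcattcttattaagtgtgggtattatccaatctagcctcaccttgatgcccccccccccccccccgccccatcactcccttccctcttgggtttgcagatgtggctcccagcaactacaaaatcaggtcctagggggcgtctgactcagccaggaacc
These matches describe the letters in the windows and say nothing of binding.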

How the data were processed

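Quadriceps RNA of 19 samples was read on one-color Agilent arrays. The authors deposited the processed spot intensity of each array, which Feature Extraction 10.7.3.1 (submitters' processing notes) had background-subtracted and detrended, without normalization between arrays. The authors also deposited a table of log2 values (25944 entries), used as an alternative, whose columns correlated with the log2 intensities of their arrays at r = 0.996 to 0.998 and had medians of 7.59 to 7.65. How it was normalized is not given in the sources used here. Probe positions are those of the files on mm9. No annotation of that build was used here, so exon and UTR positions are not stated.

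Log2 intensities were centered on each array's 75th percentile, control spots and outlier flags were left out, and spots of 1 probe were averaged. Probes well above background on at least 4 arrays were kept (67.1% to 80.1% of probes on an array were well above background). The number of arrays limits the precision. All groups, taken from the sample labels, entered 1 fit in limma 3.58.1 (R 4.3.3), with Benjamini-Hochberg adjustment over 32026 probes, and exact permutation tests (2-sided) were added for single genes. A gene was represented by its brightest probe. Values by array are given for genes called on their brightest probe between genotypes on either diet, between diets in either genotype or in the interaction, for the 5 largest differences on the NCD and for Aldh9a1, which the study measured by real-time PCR. Those of Acadvl, Echs1 and Acat2, beyond this rule, were chosen after their values were seen. The members and lists were chosen with earlier results of these data known. The fit was also run on simulated data with independent noise on each array. That simulation had no slide effect, so it cannot show how the fit behaves with one. Of the 49 probes' accessions 47 were in the RefSeq table, all with the same symbol.

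The arrays lay on 5 slides. Replicate numbers came from the sample titles. Same-numbered arrays shared a slide, except for CTR-HFD replicate 4. Deviations of same-numbered CTR-NCD and AR113Q-NCD arrays correlated at 0.237 to 0.447, all 5 over 0.1. In other pairs of groups not every pair was over 0.1. The lowest value, -0.206, was that of CTR-HFD and AR113Q-HFD replicate 3, which also shared a slide. Alternatives were other scalings, filters and variance models, slide or replicate blocks, fold thresholds, the compared groups alone, each array left out in turn and, chosen after seeing the data, both control arrays with high slow fiber signal left out. Plots and sequence searches used Python 3.11.15 and matplotlib 3.10.9. Some items are not reported here.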

Additional observations from a re-analysis of the deposited data

Results flagged for a closer look

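Of 144 sets of arrays (36 genes in 4 groups), 7 held an array far from the others of its group, and chance alone gives about 1 in 20. The Acsl3 signal of AR113Q-NCD replicate 2 was -4.43, above the other arrays of its group (-4.89 the nearest) and still below every control. Acadsb was 2.30 in CTR-NCD replicate 4, below the other CTR-NCD arrays (2.41 the nearest). Acat2 was high in AR113Q-HFD replicate 3 at -3.65 and in AR113Q-NCD replicate 2 at -3.34. In AR113Q-HFD replicate 3, the array with the lowest slow fiber signal of its group, Hsd17b10 was 4.74 and Hsd17b4 3.80, both below the other arrays. Acaa1b was 1.38 in AR113Q-HFD replicate 4, below the others (1.69 the nearest).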

How the results depend on the processing

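On the NCD the count of 10 called members became 16 (15 higher, 1 lower) after quantile normalization, 3 (2 higher, 1 lower) after median centring, 2 (both higher) with normexp and 3 with the fold thresholds, and their median log2 fold change 0.54 with normexp. That correction moved the median of all genes from -0.06 to -0.51. On the HFD the count of 6 became 2 (1 higher, 1 lower) after median centring, 1 (higher) with normexp, 1 with the fold thresholds and 3 when only the 2 groups were fitted, and the median of -0.01 became 0.13 after quantile normalization, 0.12 in the authors' values and 0.13 without both control arrays of high slow fiber signal. Averaged over diets the 11 became 17 after quantile normalization and in the authors' values, 4 with normexp and 1 with the fold thresholds. Averaged over genotypes the diet count of 0 became 1 (Acat2) with probes well above background on all arrays, with the slide as a random block and with the replicate block, and the median of 0.01 became 0.16 with normexp. The cause of these shifts was not tested. Shares of all genes called under each alternative are not given here, so the changed counts cannot be read as particular to the members. The replicate block gave 11 called members on the NCD, 7 on the HFD and 13 averaged over diets, and changed none of the 27 calls of single members. With the slide as a block the counts were 11 (fixed) and 14 (random) on the NCD, 8 and 7 on the HFD and 16 and 15 averaged over diets. Of the 27 calls, 14 ended after median centring, and with normexp 19 ended and 1 reversed.

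With 1 array left out, called members ranged from 7 to 15 on the NCD (7 without AR113Q-NCD replicate 5, 15 without CTR-HFD replicate 3), from 4 to 6 on the HFD (4 without CTR-HFD replicate 4 and without AR113Q-HFD replicate 4), from 9 to 13 averaged over diets and from 0 to 1 for the diet averaged over genotypes, and stayed 0 for both diet comparisons and the interaction. The medians ranged from 0.24 to 0.29 on the NCD, from -0.086 to 0.13 on the HFD and from -0.034 to 0.029 for the averaged diet. Without both control arrays of high slow fiber signal, 12 members were called on the NCD and 6 on the HFD.

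Acox3 reversed in the authors' values, to -0.059 on the NCD, -0.14 on the HFD and -0.10 averaged, where its entry correlated over arrays with the mean of its brightest and second probes (r = 0.987) and less with the brightest alone (r = -0.05). Decr2 reversed to -0.13 on the NCD with normexp. Over 32 alternatives Hsd17b4 on the NCD and Cpt1a on the HFD kept their calls in 32, Acsl3 on each diet and Cpt1a on the NCD in 31, Aldh9a1 in 23, Ehhadh on the HFD in 18 and Acadl on the NCD in 15. All members were well above background on every array, but Acsl3, the dimmest in AR113Q quadriceps, lost its call on each diet with normexp.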
